A study of Magallana hongkongensis with 2 samples.

Results

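The ion pumps, ion exchangers and carbonic anhydrases of the oyster gill were described here at the level of their transcripts. A unigene, that is a transcript assembled from reads, was taken as a member when its description named a V-type proton ATPase, a sodium/potassium-transporting ATPase, a calcium-transporting or sarcoplasmic/endoplasmic reticulum calcium ATPase, a carbonic anhydrase, a sodium/hydrogen exchanger or a bicarbonate transporter. The words matched 61 of the 21226 unigenes listed in either library. The members fell into 8 classes, and 49 of them held at least 20 reads over both libraries, the minimum for a call. Of the 61 descriptions, 52 came from the Pacific oyster (Crassostrea gigas), so the names are those of best matches and not of characterised proteins.

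The study measured polyadenylated RNA from the gill of wild, diploid adult Hong Kong oysters (Crassostrea hongkongensis), an estuarine bivalve, with 1 library per group and no replicates. The library labelled heat shock came from oysters kept for 1 h in seawater warmed to 37 °C and then brought back to 23 °C, and holds pooled gill of 10 oysters. The library labelled control came from oysters that stayed at 23 °C throughout, in a number not given in the sources used here. Both groups had been acclimated for 2 weeks and fed microalgae, and their sex was not determined. How long after the shock the gills were taken was not stated in the labels.

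Counted in units of 1000, the library labelled heat shock held 4173 uniquely mapped reads and the library labelled control 3925, with 54 and 46 reads in the median listed unigene. Heat shock transcripts went against the labels: heat shock protein 90 (Unigene0015010) had 3478 reads in the library labelled heat shock and 54239 in the library labelled control, and for the chaperone HSP70 B2 (Unigene0016013) the counts were 321 and 19995. The libraries are therefore called by their labels. Whether the labels or files were exchanged was not tested; if they were, every ratio below would turn round. Ratios are of CPM (reads scaled to the total of their library), library labelled heat shock over library labelled control, each with an exact 95% interval that covers counting error only. Copies made by PCR are counted as if they were separate molecules, and the variation from 1 pool of oysters to another is not in the interval. The median tested unigene had a log2 ratio of 0.17, so a ratio slightly above 1 was the ordinary case. In a dissected gill, fewer cells of a type and less RNA per cell cannot be told apart.

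The gill of a bivalve exchanges ions, acid and carbon dioxide with seawater across a ciliated epithelium. The V-type proton ATPase is a rotary pump with a peripheral V1 sector that hydrolyses ATP and a membrane V0 sector that carries protons. It acidifies lysosomes and other compartments and, in some epithelia, the outside medium. The sodium/potassium ATPase keeps the sodium gradient that drives exchangers and cotransporters. The calcium ATPases clear calcium from the cytosol to the outside or into the endoplasmic reticulum and Golgi. Carbonic anhydrases convert carbon dioxide to bicarbonate and protons, which sodium/hydrogen exchangers and bicarbonate transporters then move across membranes.

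The classes differed in their direction between the libraries. Sarcoplasmic/endoplasmic reticulum calcium ATPase (SERCA) stood at 2267 reads in the library labelled heat shock against 3130 in the library labelled control, lower at a ratio of 0.681 (0.645 to 0.719). Carbonic anhydrases were higher, with 1145 reads in the library labelled heat shock against 716 in the library labelled control, a ratio of 1.5 (1.37 to 1.65). These directions were the same with edgeR's TMM factors, at 0.608 and 1.34. The V-type proton ATPase and the sodium/potassium ATPase had ratios of 1.10 (1.05 to 1.15) and 1.11 (1.07 to 1.15). With TMM factors these were 0.982 (0.938 to 1.03) and 0.993 (0.959 to 1.03), both with intervals that included 1. Whether these classes differed between the libraries thus rests on the scaling. The 61 members made up 0.433% of all reads in the library labelled heat shock and 0.419% in the library labelled control.

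**Figure D1:**
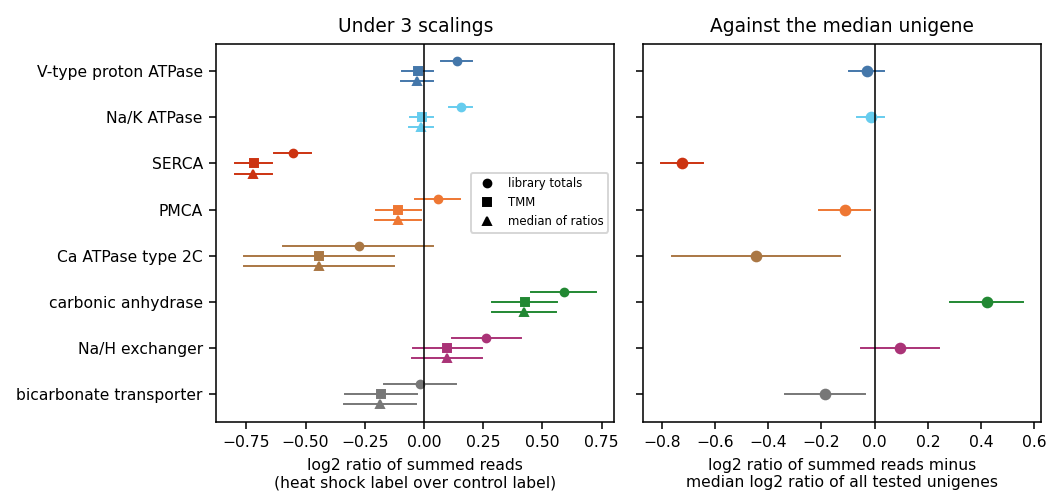
Left, log2 ratio of the summed reads of each class, library labelled heat shock over library labelled control, with library totals, TMM factors and median-of-ratios factors; right, the same ratio minus the median over the tested unigenes, which does not depend on the scaling. Lines are exact 95% intervals for counting error. Against the median unigene, SERCA lies at -0.72, calcium-transporting ATPase type 2C at -0.45 and carbonic anhydrase at 0.42. Bicarbonate transporters (-0.19) and the plasma membrane calcium ATPase (PMCA, -0.11) lie closer below it, also with intervals that exclude the median. The intervals of the sodium/hydrogen exchangers (0.09), the V-type proton ATPase (-0.03) and the sodium/potassium ATPase (-0.01) include the median.

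Few members passed the rule for a call, which asks for a 2-fold difference or more and an interval that excludes 1. In the library labelled heat shock 1 of the 49 tested members was called higher and 0 were called lower, beside 3.97% and 3.25% of the 17364 tested unigenes. The call was the carbonic anhydrase-related protein described below, and it was lost with TMM factors, with which 0 members were called higher and 0 lower, beside 2.34% and 4.37% of all tested unigenes. By the interval alone, 14 members lay above 1, 4 below it and 31 spanned it, beside 23.0%, 8.91% and 68.0% of all tested unigenes. At a ratio of at least 1.5, with the same interval, 6 members were called higher and 2 lower, beside 10.7% and 5.71% of all tested unigenes. With TMM factors the 6 became 0 and the 2 stayed 2, beside 5.64% and 8.41%. The median log2 ratio of the tested members was 0.15, close to that of all unigenes.

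**Figure D2:**
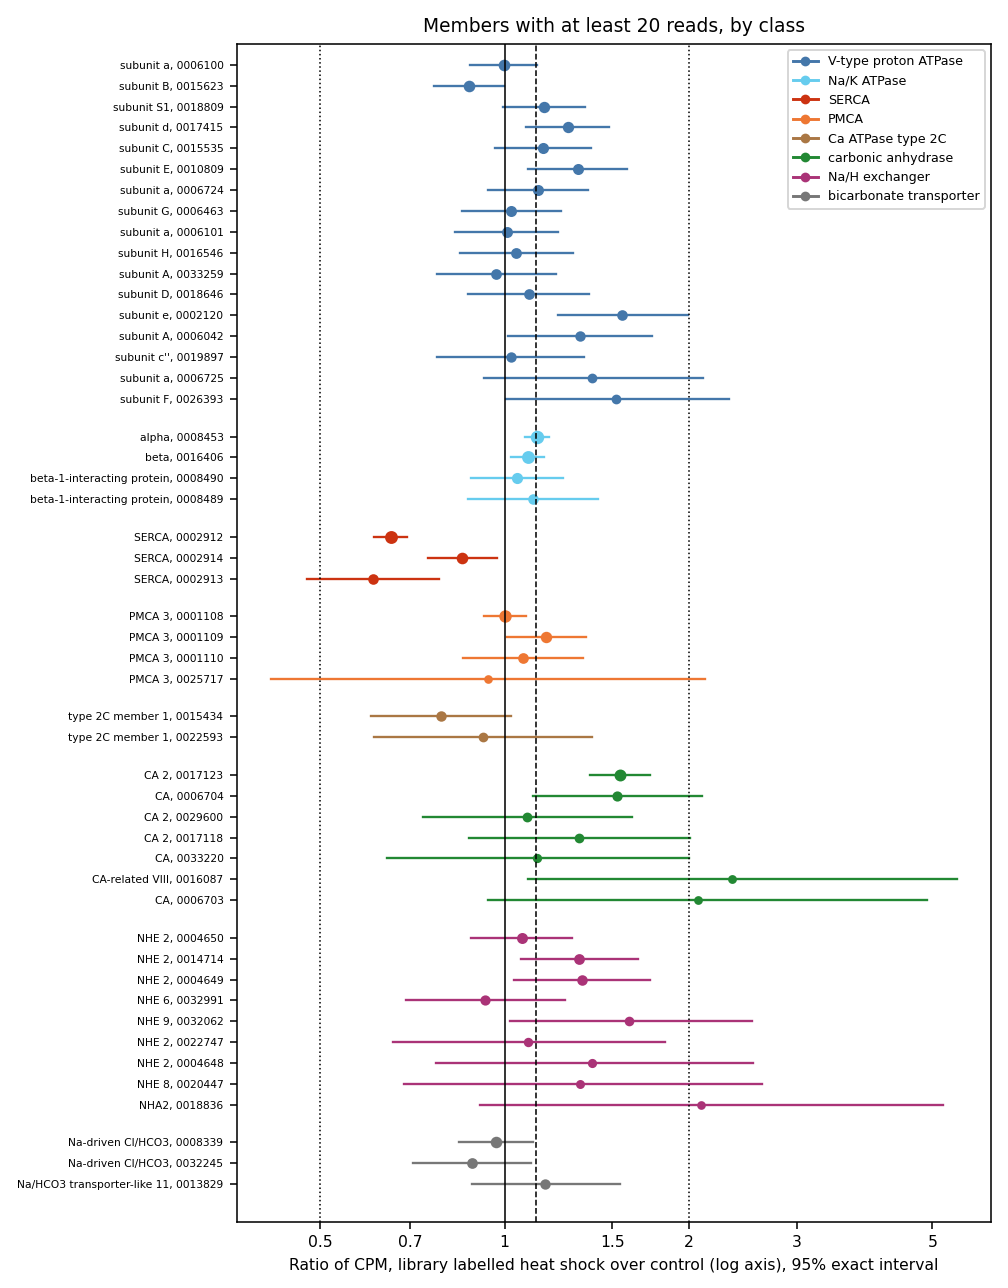
Ratio of CPM, library labelled heat shock over library labelled control (log axis), for the 49 members with at least 20 reads, grouped by class and ordered by reads; lines are exact 95% intervals and larger points hold more reads. The dashed line is the median of all tested unigenes and the dotted lines mark ratios of 0.5 and 2; the 3 SERCA unigenes lie left of 1 and the 7 carbonic anhydrases right of it. Each label ends with the number of the unigene.

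SERCA pumps calcium from the cytosol into the endoplasmic reticulum, where chaperones bind it, and into the sarcoplasmic reticulum of muscle. It was represented by 3 unigenes of the same description. Unigene0002912 (2975 bases) held most of the reads, 1710 in the library labelled heat shock and 2468 in the library labelled control, at a ratio of 0.652 (0.612 to 0.693). The short Unigene0002913 (243 bases) had 109 and 168 reads, at 0.610 (0.475 to 0.781). These are the 2 members called lower at 1.5-fold. Unigene0002914 (2209 bases) had 448 and 494 reads, a smaller difference at a ratio of 0.853 (0.749 to 0.971). Its ratio was 1.31 times that of Unigene0002912 (exact 95% interval of the ratio of ratios 1.13 to 1.51), so the unigenes of this class did not all differ by the same amount between the libraries. Whether they are pieces of 1 transcript, isoforms or copies was not tested. Without Unigene0002912 the class had a ratio of 0.791 (0.706 to 0.887).

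The most abundant SERCA unigene held a different place beside the sodium/potassium ATPase alpha subunit in each library. Per length, Unigene0002912 had 138 RPKM (reads scaled to unigene length and library total) in the library labelled heat shock and 211 RPKM in the library labelled control. The sodium/potassium ATPase alpha subunit (Unigene0008453) had 214 and 189 RPKM. Within the library labelled heat shock the level of Unigene0002912 was thus 0.644 times that of the alpha subunit (0.609 to 0.682). Within the library labelled control it was 1.12 times (1.06 to 1.18). The SERCA unigenes Unigene0002914 (48.6 and 57.0 RPKM) and Unigene0002913 (107 and 176 RPKM) are not in this comparison, so it does not give the level of SERCA as a whole. The ratio of Unigene0002912 between the libraries was not rare. Of the 1422 unigenes with at least 1000 reads, 6.33% were called lower at 1.5-fold, Unigene0002912 among them.

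Partners of SERCA in calcium handling were taken from a list of store channels, exchangers and sensors with 28 unigenes, 26 of them tested, 1 of which is no channel but a protein with a ryanodine receptor domain. None was called at 2-fold, and at 1.5-fold 3 were called higher and 1 lower, close to the 10.7% and 5.71% of all tested unigenes. Of the 26, 21 had ratios above 1, beside 66.1% of all tested unigenes, and the summed ratio of the list was 1.17 (1.12 to 1.22). The median log2 ratio of the list was 0.21, close to the 0.17 of all tested unigenes. Stromal interaction molecule 1, the calcium sensor of the endoplasmic reticulum (Unigene0006492), had 477 reads in the library labelled heat shock and 588 in the library labelled control, a ratio of 0.763 (0.675 to 0.862). Sodium/calcium exchanger 3, which exports calcium at the plasma membrane (Unigene0004243), went the other way with 948 and 623 reads, a ratio of 1.43 (1.29 to 1.59). Calreticulin, the calcium-binding chaperone of the endoplasmic reticulum (Unigene0017898), is on no list here and was chosen for its known difference; it had 2669 and 10521 reads. Muscle, which is rich in SERCA in other animals, was examined through 115 unigenes caught by words such as troponin, paramyosin, tropomyosin, titin and calponin, of which 114 had reads in both libraries and 1 was at 0 in the library labelled heat shock. Their summed reads took 0.504% of the library labelled heat shock and 0.446% of the library labelled control, and their median log2 ratio was 0.26. The words also caught proteins with a calponin domain that are no muscle markers, and the part of muscle in the SERCA ratio was not tested.

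The plasma membrane calcium ATPase, which pumps calcium out of the cell, had 4 unigenes, described as Plasma membrane calcium-transporting ATPase 3. The longest (Unigene0001108, 3299 bases) had 1272 reads in the library labelled heat shock and 1194 in the library labelled control, a ratio of 1.00 (0.925 to 1.09). Unigene0001109 had 409 and 329 reads, a ratio of 1.17 (1.01 to 1.36), and Unigene0001110 had 172 and 151 reads, at 1.07 (0.856 to 1.34). The fourth, Unigene0025717, had 14 reads in each library. Over the class the ratio was 1.04 (0.974 to 1.11), and 0.928 (0.868 to 0.992) with TMM factors, so no direction is given. The ratio of SERCA between the libraries was 0.655 times the ratio of this class (0.601 to 0.714), a comparison that does not depend on the scaling.

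Calcium-transporting ATPase type 2C member 1, a pump of the Golgi for calcium and manganese in other animals, was rare. Unigene0015434 had 108 reads in the library labelled heat shock and 129 in the library labelled control, a ratio of 0.787 (0.604 to 1.02), and Unigene0022593 had 50 and 51 reads, at 0.922 (0.612 to 1.39). The class ratio was 0.826 with an interval of 0.663 to 1.03 that included 1, and with TMM factors it was 0.737 with an interval of 0.591 to 0.917 that did not. This class ratio could not be told from that of SERCA at this depth, since the ratio of SERCA to it was 0.825 with an interval of 0.658 to 1.04.

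Carbonic anhydrases had 9 unigenes, 7 of them tested, and all 7 had ratios above 1 with library totals, beside 66.1% of all tested unigenes. The intervals of 3 lay above 1 and those of 4 included it, beside 23.0% and 68.0% of all tested unigenes. The most abundant, described as Carbonic anhydrase 2 (Unigene0017123, 1886 bases), had 835 reads in the library labelled heat shock and 509 in the library labelled control, at a ratio of 1.54 (1.38 to 1.73). It was called higher at 1.5-fold, as were 5.56% of the unigenes with at least 1000 reads, and so was Unigene0006704, described as carbonic anhydrase, with 107 and 66 reads and a ratio of 1.52 (1.11 to 2.11). With TMM factors Unigene0017123 came to 1.38 (1.23 to 1.54) and was not called. Unigene0006704 came to 1.36 with TMM factors, with an interval of 0.992 to 1.88 that included 1. Unigene0029600 came to 0.971 with TMM factors, so not all 7 ratios stayed above 1. Unigene0017118 had 59 and 42 reads, at 1.32 (0.875 to 2.01), and Unigene0029600 had 59 and 51 reads, at 1.09 (0.735 to 1.62), both also described as Carbonic anhydrase 2. At this depth, no other tested carbonic anhydrase had a ratio that could be told from that of Unigene0017123. The others held only 32 to 173 reads each, so this does not show that they differed by the same amount. Without Unigene0017123 the class had a ratio of 1.41 (1.18 to 1.69).

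The member called at 2-fold was the carbonic anhydrase-related protein VIII (Unigene0016087), matched to the pearl oyster Pinctada fucata. In mammals this protein lacks the zinc site and does not hydrate carbon dioxide. It had 25 reads in the library labelled heat shock and 10 in the library labelled control, a ratio of 2.35 (1.09 to 5.49), which became 2.10 (0.973 to 4.89) with TMM factors. The call therefore rests on 35 reads. Unigene0006703, described as carbonic anhydrase, had 22 and 10 reads, a ratio of 2.07 whose interval of 0.940 to 4.89 included 1. The members below the minimum were Unigene0020972, with 7 and 1 reads, and Unigene0025730, with 1 and 2 reads. Nacreins, the carbonic anhydrases of the shell matrix, are listed under their own name in 5 unigenes that had 0 reads in the library labelled heat shock and 1 to 3 reads each in the library labelled control, which is at or under the 3 reads that a count of 0 allows.

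Per length, Unigene0017123 had 106 RPKM in the library labelled heat shock and 68.8 RPKM in the library labelled control. It stood above the long plasma membrane calcium ATPase unigene in the library labelled heat shock, at 1.15 times its level (1.05 to 1.25), and below it in the library labelled control, at 0.746 times (0.671 to 0.828). The other tested carbonic anhydrases ranged from 2.69 RPKM (Unigene0016087) to 28.3 RPKM (Unigene0029600) in the library labelled heat shock, and stood in the library labelled control at 1.14 and 26 RPKM for the same unigenes. A single unigene thus held most of the carbonic anhydrase reads in both libraries. Deposited annotation placed 6 of the 9 unigenes in the nitrogen metabolism pathway of KEGG.

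**Figure D3:**
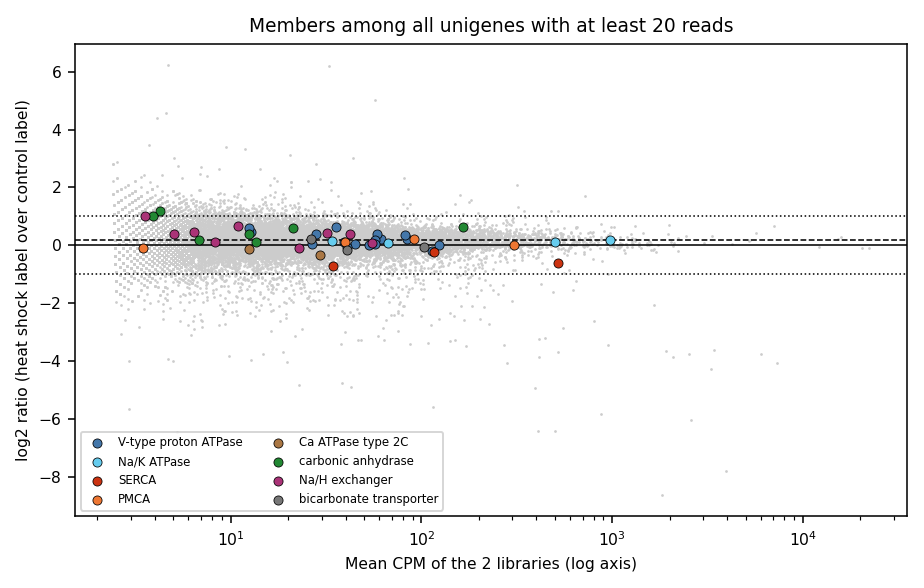
Log2 ratio, library labelled heat shock over library labelled control, against mean CPM (log axis) for all 17364 unigenes with at least 20 reads (grey) and the 49 tested members (coloured by class). The dashed line is the median of 0.17 and the dotted lines mark 2-fold; Unigene0002912 of SERCA lies below the grey band's centre at -0.62 and carbonic anhydrase Unigene0017123 above it at 0.63.

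The V-type proton ATPase had the most members, with 18 unigenes, 17 of them tested, and none was called at 2-fold. Its V1 sector had 1971 reads in the library labelled heat shock and 1737 in the library labelled control, and its V0 sector 1728 and 1441 reads. In V1, the catalytic subunit A was split over Unigene0033259, with 167 and 162 reads, and Unigene0006042, with 134 and 95 reads. The other subunit of the catalytic ring, B (Unigene0015623), had 441 and 474 reads, a ratio of 0.875 (0.767 to 0.998), and was the member of the class with the lowest ratio. Subunit E of the outer stalk (Unigene0010809) had 277 and 198 reads, at 1.32 (1.09 to 1.59), while its stalk partner G (Unigene0006463) had 241 and 221 reads, at 1.03 (0.851 to 1.24). The rotor subunits D (Unigene0018646) and F (Unigene0026393) had 171 and 147 reads and 63 and 39 reads. Subunits C (Unigene0015535) and H (Unigene0016546), which join the sectors and regulate the pump, had 275 and 224 reads and 191 and 172 reads.

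In V0, subunit a, which lines the path of the protons, was spread over 4 unigenes, led by Unigene0006100 with 512 reads in the library labelled heat shock and 483 in the library labelled control, a ratio of 0.997 (0.879 to 1.13). Subunit d (Unigene0017415), which couples the rotor to the membrane ring, had 384 and 285 reads, at 1.27 (1.08 to 1.48). The ring subunit described as the 21 kDa proteolipid (Unigene0019897) had 112 and 103 reads. The small membrane subunit e (Unigene0002120) had the largest ratio of the tested members of the class, with 182 and 110 reads and a ratio of 1.56 (1.22 to 1.99). Its ratio between the libraries was 1.56 times that of Unigene0006100 (1.19 to 2.06), and the ratios of subunits d and E were 1.27 times (1.04 to 1.56) and 1.32 times (1.05 to 1.66) that of Unigene0006100; the other 13 comparisons within the class did not separate. Subunits e and F were called higher at 1.5-fold and neither was with TMM factors. The accessory subunit S1 (Unigene0018809) had 378 and 307 reads, at 1.16 (0.994 to 1.35).

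The words of the rule missed the main ring subunit. It is listed as vacuolar H+-ATPase V0 sector subunits c/c' (Unigene0019395) and had 577 reads in the library labelled heat shock and 523 in the library labelled control, a ratio of 1.04 (0.920 to 1.17). With it the class ratio was 1.09 (1.05 to 1.14). Per length, it led the subunits with 98.4 RPKM in the library labelled heat shock and 94.8 RPKM in the library labelled control. Subunit G followed at 90.4 and 88.1 RPKM and subunit E at 80.3 and 61.0 RPKM. Of the catalytic pair, A had 29.7 and 30.6 RPKM in Unigene0033259 and 42.8 and 32.2 RPKM in Unigene0006042, and B had 42.8 and 48.9 RPKM. Subunits with several unigenes have their reads divided among them. Helpers of the pump had no call: the renin receptor, an accessory protein of V0 (Unigene0014315), had 872 and 710 reads, at 1.16 (1.05 to 1.28), and of 5 unigenes of DmX-like protein 2, an assembly factor, the most abundant (Unigene0017082) had 104 and 92 reads. KEGG placed 17 of the 18 unigenes in both the phagosome and the oxidative phosphorylation pathways.

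**Figure D4:**
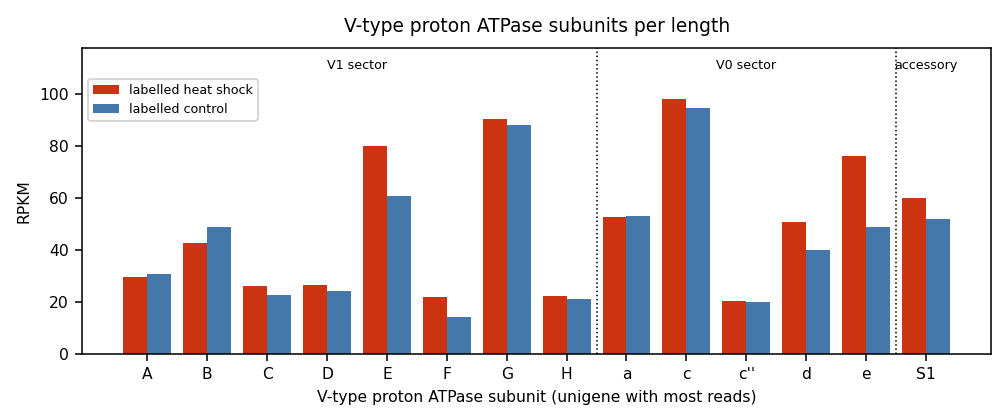
RPKM of 14 subunits of the V-type proton ATPase in the library labelled heat shock (left bar of each pair) and the library labelled control (right bar), for the unigene of each subunit with most reads; subunit c is the one that the words of the rule missed. Levels in the library labelled heat shock run from 20.3 RPKM for the 21 kDa proteolipid (drawn as c'') to 98.4 RPKM for subunit c. The bars of subunits e (76.2 and 49.0 RPKM) and E (80.3 and 61.0 RPKM) lie further apart than those of the other subunits.

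The sodium/potassium ATPase held the most reads of the 8 classes in both libraries. Its alpha subunit, which binds the ions and ATP, was a single unigene (Unigene0008453) with 4333 reads in the library labelled heat shock and 3610 in the library labelled control, at a ratio of 1.13 (1.08 to 1.18). Its beta subunit, needed for the pump to reach the membrane and matched to a beta-2-like protein of the sea hare Aplysia californica (Unigene0016406), had 2171 and 1872 reads, at 1.09 (1.02 to 1.16). With TMM factors these were 1.01 (0.963 to 1.05) and 0.973 (0.914 to 1.04), both with intervals that included 1. Per length the beta subunit was the higher of the pair in both libraries, at 246 and 225 RPKM against 214 and 189 RPKM of alpha. The ratio of the pair was 1.15 (1.09 to 1.21) in the library labelled heat shock and 1.19 (1.12 to 1.26) in the library labelled control. The class also holds 2 unigenes of beta-1-interacting protein 3, a membrane protein that binds the beta subunit in mammals and is no part of the pump. They had 286 and 257 reads (Unigene0008490) and 150 and 127 reads (Unigene0008489).

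Sodium/hydrogen exchangers, which swap a proton for a sodium ion, had 13 unigenes, 9 of them tested, and none was called at 2-fold. Exchanger 2, a plasma membrane form in vertebrates, made up 5 of them, with 657 reads in the library labelled heat shock and 511 in the library labelled control, a ratio of 1.21 (1.08 to 1.36). Unigene0004650 had 237 and 209 reads, at 1.07 (0.882 to 1.29), Unigene0014714 had 201 and 143 reads, at 1.32 (1.06 to 1.65), and Unigene0004649 had 152 and 107 reads, at 1.34 (1.04 to 1.73). Among the forms of endosomes and Golgi in mammals, exchanger 6 (Unigene0032991) had 92 and 93 reads, exchanger 8 (Unigene0020447) 24 and 17, and exchanger 9 (Unigene0032062) 56 and 33. Exchanger 9 was called higher at 1.5-fold, at 1.60 (1.02 to 2.53), but not with TMM factors. The 4 unigenes of NHA2 held 39 and 22 reads in all, and exchanger 10, a form of sperm in mammals (Unigene0016085), had 1 and 5. The class ratio was 1.2 (1.08 to 1.33), and 1.07 with TMM factors, where its interval included 1.

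Bicarbonate transporters had 8 unigenes, of which 3 reached the minimum and none was called. The sodium-driven chloride bicarbonate exchanger, which takes up bicarbonate, had 425 reads in the library labelled heat shock and 413 in the library labelled control in Unigene0008339, a ratio of 0.968 (0.843 to 1.11), and 159 and 169 in Unigene0032245, at 0.885 (0.708 to 1.11). Sodium bicarbonate transporter-like protein 11 (Unigene0013829, 4573 bases) had 119 and 96 reads, at 1.17 (0.884 to 1.54). The 5 unigenes below the minimum included another of the exchanger, Unigene0024054, with 10 and 4 reads. The class ratio of 0.988 (0.889 to 1.10) was close to 1. With TMM factors it was 0.881, with an interval of 0.793 to 0.979 that lay below 1.

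The classes were set against each other as ratios of their ratios, which no scaling changes. Of the 28 pairs, 19 had an exact 95% interval that excluded 1, and 11 had one that still did at an error rate of 0.001 in place of 0.05. SERCA differed from 6 of the other 7 classes at both levels, the exception being the type 2C pump. Its ratio between the libraries was 0.453 times that of the carbonic anhydrases (0.406 to 0.505), 0.612 times that of the sodium/potassium ATPase (0.574 to 0.653) and 0.568 times that of the sodium/hydrogen exchangers (0.506 to 0.637). Carbonic anhydrases differed from all 7 other classes at the 95% level and from 6 at the stricter one, the exception being the sodium/hydrogen exchangers, whose ratio theirs exceeded 1.25 times (1.09 to 1.44). The V-type proton ATPase and the sodium/potassium ATPase did not separate, with a ratio of ratios of 0.989 and an interval of 0.934 to 1.05. Carbonic anhydrases and bicarbonate transporters did separate, with a ratio of ratios of 1.52 (1.32 to 1.76). These intervals compare 2 libraries and cover counting error only.

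Other ion and water transporters were taken from lists of words, and their calls stand beside 3.97% higher and 3.25% lower of all tested unigenes, or 2.34% and 4.37% with TMM factors. Of 4 aquaporins, which carry water, Aquaporin-4 was called higher in the library labelled heat shock (Unigene0020480, 137 reads there and 47 in the library labelled control, a ratio of 2.74 with an interval of 1.96 to 3.90), also with TMM factors. Aquaporin-8 (Unigene0020563) had 355 and 233 reads, at 1.43 (1.21 to 1.70). Of 20 tested P-type ATPases outside the rule, which move copper, phospholipids and other cations, 1 was called, a phospholipid-transporting ATPase VD (Unigene0021132) with 120 and 56 reads at 2.02 (1.46 to 2.82), and not with TMM factors. The most abundant were Copper-transporting ATPase 1 (Unigene0005045), with 855 and 892 reads, and another ATPase VD unigene (Unigene0006064), with 750 and 515. Of 19 tested anion and cation-chloride transporters, 2 were called lower and 0 higher. Both were described as Chloride channel protein 7, which works in lysosomes in mammals, with 17 and 47 reads (Unigene0022591) and 10 and 27 reads (Unigene0012908). Another Chloride channel protein 7 unigene (Unigene0014209) had 161 and 158 reads. Anion exchange protein 2 (Unigene0013861), a bicarbonate and chloride exchanger outside the words of the rule, had 305 and 229 reads. Its ratio was 1.25 (1.05 to 1.49), and 1.12 (0.938 to 1.33) with TMM factors. Under the same description, Unigene0014231 had 86 and 91 reads and Unigene0019935 had 59 and 49, both with intervals that included 1. At 1.5-fold 5 of the 19 were called lower and 0 higher, beside 5.71% and 10.7% of all tested unigenes. Solute carrier family 12 member 4 (Unigene0015620), 1 of the 5, had 107 and 182 reads. The summed ratio of this list was 0.914 (0.851 to 0.982). Of 5 tested ammonium transporters none was called; an ammonium transporter-like protein (Unigene0019680) had 170 and 115 reads and the Rh type B-A (Unigene0010498) had 39 and 54.

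Cilia, which the gill epithelium carries, were described through words for their proteins. No library of another tissue was at hand to set them against, so the identity of the tissue was not tested. The 97 unigenes of tektins, radial spokes, dynein heavy chains and intraflagellar transport made up 1.35% of the library labelled heat shock and 1.12% of the library labelled control, a ratio of 1.21 (1.19 to 1.22). Unigenes caught by words for the shell-forming mantle took 0.0894% and 0.0883%. Those caught by words for gonad took 0.148% and 0.118%, and those for digestive gland 0.110% and 0.0962%. The mantle words caught 30 unigenes with 3732 and 3465 reads, and 1 of them held 3809 reads over both libraries. The gonad words mostly caught sperm-associated antigens and sperm flagellar proteins, and the digestive words mostly neurotrypsins and inter-alpha-trypsin inhibitors. Of the digestive list 28 of 33 unigenes had reads in both libraries, and of the gonad list 22 of 25. Among the enzymes, Alpha-amylase (Unigene0021622) had 0 and 4 reads and Trypsin-1 (Unigene0024071) 0 and 2, while Endoglucanase E-4 (Unigene0011646) had 52 and 36. Of the yolk proteins, a unigene matched to an insect vitellogenin (Unigene0004787) had 167 and 85 reads and Vitellogenin-6 (Unigene0022344) 2 and 0. No unigene matched the words for food algae. The cilia unigenes had a median log2 ratio of 0.31, between those of all tested unigenes (0.17) and the carbonic anhydrases (0.60), and the part of ciliated cells in the class ratios was not tested.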

How the data were processed

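Per the file headers, the authors deposited 1 table per library that gives each listed unigene its read count (unique mapping only), length, covered percent of that length and RPKM. The deposited counts sum to the header totals, and the deposited RPKM equals the count scaled to unigene length and to that total. CASAVA 1.4 and cutadapt 1.8.1 are named in the submitters' processing notes; the aligner and assembly were not given in the sources used here. The deposited percent of length covered was read as a description of the libraries only. Unique counts lose the reads shared by near-identical copies. A unigene listed in 1 file was set to 0 reads in the other.

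With 1 library per group no p-value was computed. CPM ratios carry exact conditional binomial (Clopper-Pearson) 95% intervals, classes were compared by conditional odds ratios (SciPy 1.17.1), and log2 ratios used a prior count of 0.5. Calls needed 20 reads, a ratio of 2 and an interval excluding 1. The call rule was tested on simulated data with counting error only, which cannot show how it fares with variation between pools. Scaling alternatives were edgeR 4.0.16 TMM factors and DESeq2 1.42.0 median-of-ratios factors. Named genes are called members, the 4 most abundant per class, 1 unigene per V-type ATPase subunit, and the 2 most abundant and the called members of each list; others named were chosen after their values were seen. Members, classes and lists were chosen with earlier results of these data known. No sequences were used here.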

Additional observations from a re-analysis of the deposited data

How the results depend on the processing

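No paired analysis was possible because each group has 1 library, which also leaves no replicate to leave out. With TMM and median-of-ratios factors the summed ratio turned below 1 for all members (0.921 and 0.920), the V-type proton ATPase (0.982 and 0.980) and the sodium/potassium ATPase (0.993 and 0.991), and for the beta subunit Unigene0016406 (0.973 and 0.971). Apart from all members, these had intervals that included 1 with both factors. The summed ratio moved to 0.608 and 0.607 for SERCA, 0.928 and 0.926 for the plasma membrane calcium ATPase, 1.34 and 1.34 for carbonic anhydrase, 1.07 and 1.07 for the sodium/hydrogen exchangers and 0.881 and 0.879 for the bicarbonate transporters. Medians of log2 ratios moved to -0.027 and -0.029 for the sodium/potassium ATPase, -0.78 and -0.79 for SERCA and -0.11 and -0.12 for the plasma membrane calcium ATPase. Without its most abundant member the summed ratio was 1.01 for all members, 0.791 for SERCA and 1.13 for the plasma membrane calcium ATPase. Of all unigenes, 690 were called higher and 564 lower; TMM gave 406 and 759, median of ratios 405 and 761, a minimum of 100 reads 196 and 312, a ratio of 1.5 gave 1851 and 992, a ratio of 4 gave 55 and 141, and an interval with an error rate of 0.001 left 315 and 413. The share of calls that were higher was 55.0%, and 34.8% with TMM. At 1.5-fold, 979 and 977 of all unigenes were higher with the TMM and the median-of-ratios factors, and 0 and 0 members. The single higher call, a carbonic anhydrase, became 0 with TMM, with median of ratios, at 100 reads, at 4-fold and with that wider interval. At 1.5-fold it became 6 over all classes (2 of the V-type proton ATPase, 3 carbonic anhydrases and 1 sodium/hydrogen exchanger) with 2 lower, both SERCA. With no minimum it became 2, the added one being a bicarbonate transporter (Unigene0028947, 9 and 1 reads). The cause of these differences was not tested, apart from the scaling, which shifts all ratios by 1 factor, and the stricter rules, which leave fewer unigenes to call. Other names of the same proteins, matches in molluscs only, and the 2 class alternatives added after the data were seen kept every summed ratio within its main interval. A count of 0 allows 3 reads, 0.719 CPM in the library labelled heat shock and 0.764 CPM in the library labelled control.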
